A study of Mus musculus with 4 samples.

Results

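Mouse genes whose symbol is Zfp followed by digits alone mostly encode zinc finger proteins, many of them DNA-binding factors and many of unknown function. Of the 29267 genes listed in each deposited table, 368 carried such a symbol. The genes described here are the 262 with a mean level of at least 5 TPM (transcript abundance corrected for length) over the 4 libraries. A further 97 lay below that level, and 9 were set aside by name, namely Zfp42, Zfp281 and a chromosome 4 group of Zfp534, Zfp980, Zfp985, Zfp987, Zfp990, Zfp991 and Zfp992. Members were chosen by their mean TPM over both genotypes, so their levels are a description. The chromosome 4 genes were set aside with their values known, and 4 of those reaching 5 TPM were higher in the knockout, so the share of increases below was affected by that choice. Just inside the threshold stood Zfp667 at 5.05 and Zfp182 at 5.07 TPM, and just outside it Zfp420 at 4.96 and Zfp758 at 4.78 TPM.

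RNA came from mouse induced epiblast stem cells (iEpiSCs), pluripotent cells of the primed kind, made from naive embryonic stem cells. The groups were 2 libraries of genotype c-Jun-/- (replicates 2 and 3) and 2 wild-type libraries (replicates 2 and 3). Cells of both genotypes were converted and then kept in medium with Activin A and bFGF at 20 ng/ml each, and XAV939 at 2 µM and IWR-1 at 2.5 µM, inhibitors of Wnt signalling, were added for the conversion. The labels do not say how the c-Jun-/- cells were made, whether they were 1 clone, or whether replicates were separate cultures, so the p-values reflect spread among these libraries alone, which may be technical, and genotype and cell line cannot be told apart.

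Total expected counts (reads assigned to genes by RSEM) were 6341342 and 4666559 in knockout and 5027635 and 5339937 in wild-type libraries. Jun, which encodes the c-Jun subunit of the AP-1 transcription factor, stood at 17.3 and 17.2 TPM in knockout libraries, against 65.3 and 73.3 TPM in wild-type libraries. The fall was called (log2 fold change -1.96 ± 0.12, edgeR adjusted p = 1.83e-13). The primed markers were present. Pou5f1 had 723 and 726 TPM in knockout and 644 and 636 TPM in wild-type libraries, Fgf5 had 157 and 137 TPM in knockout and 198 and 183 TPM in wild-type libraries, and the naive markers Dppa3, Nr0b1, Tcl1 and Prdm14 were listed at 0 throughout. The other naive markers were low, with Zfp42 at 0.18 TPM or less, Klf4 at 1.91 to 2.01, Esrrb at 3.03 to 4.45 and Tfcp2l1 at 0.67 to 5.35 TPM over the 4 libraries. Otx2, another primed marker, had 57.8 and 66.0 TPM in knockout libraries, against 139 and 151 TPM in wild-type libraries, and of 8 primed markers 5 were called lower and 1 higher in the knockout. Of 6 neural markers 3 were called higher (Pax6, and on chromosome 8 Sox1 and Tubb3, with Neurog2 near 0). Their summed levels were 138 to 155 TPM in knockout and 114 to 137 TPM in wild-type libraries. Nes, at 88.8 to 100 TPM, made up most of these sums and did not pass (0.01), nor did Map2 (0.06). Of 6 extraembryonic endoderm markers 2 were called lower (Sox17 and Gata6, with Amn near 0). Their sums were 232 to 238 TPM in knockout and 273 to 288 TPM in wild-type libraries, most of it from Foxa2 at 189 to 225 TPM. Foxa2 (-0.04), Gata4 (-0.45) and Dab2, which was higher in the knockout (0.77), did not pass. Of 8 fibroblast markers 1 was higher (Col3a1) and 2 lower (Postn and Dcn), with sums of 30.3 to 40.5 TPM in knockout and 42.2 to 45.4 TPM in wild-type libraries. The part of these markers in the results below was not tested. Of 684 tested genes on chromosome 8, 391 were called higher in the knockout and 7 lower, with a median log2 fold change of 0.51, and members on that chromosome are therefore described apart.

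A classical zinc finger holds a zinc ion between a pair of cysteines and a pair of histidines, and fingers strung in a row read DNA bases. Many of these proteins also carry a KRAB domain, which recruits the corepressor KAP1 (Trim28) and through it the histone methyltransferase Setdb1, and in embryonic stem cells this machinery silences retroelements and keeps imprinted marks. Others carry a SCAN domain, which pairs such proteins with one another, and still others bind RNA or work at the mitotic spindle. KRAB zinc finger genes arose by repeated duplication and lie in tandem clusters, so neighbours resemble one another in sequence.

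For 216 members RefSeq gives 1 or more promoter windows, from 250 bases before to 50 bases after a gene's start (270 windows, build GRCm38.p6). They were searched on both strands for the letters that AP-1 is known to bind, TGACTCA, which is read as TGAGTCA on the opposite strand, and for the cyclic AMP response element TGACGTCA, which reads the same on both strands and which c-Jun binds with ATF partners. The windows shown are those of the 2 members with the largest increases and those of the 2 called members that hold the cyclic AMP element, written 5′ to 3′ on the gene's strand with the element in capitals.

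Zfp263, chr16:3743849-3744148, plus strand: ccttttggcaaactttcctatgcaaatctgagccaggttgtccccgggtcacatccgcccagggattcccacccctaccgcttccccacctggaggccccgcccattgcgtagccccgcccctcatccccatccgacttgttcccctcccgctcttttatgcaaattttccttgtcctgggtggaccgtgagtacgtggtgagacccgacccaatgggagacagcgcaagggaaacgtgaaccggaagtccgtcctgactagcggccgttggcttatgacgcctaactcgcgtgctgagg

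Zfp110, chr7:12834511-12834810, plus strand: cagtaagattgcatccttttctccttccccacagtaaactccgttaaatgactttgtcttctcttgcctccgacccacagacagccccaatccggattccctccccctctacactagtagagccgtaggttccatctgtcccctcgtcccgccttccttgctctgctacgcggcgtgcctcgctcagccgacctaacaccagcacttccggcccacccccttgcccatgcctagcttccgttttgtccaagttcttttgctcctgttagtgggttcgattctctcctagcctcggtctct

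Zfp473, chr7:44748568-44748867, minus strand: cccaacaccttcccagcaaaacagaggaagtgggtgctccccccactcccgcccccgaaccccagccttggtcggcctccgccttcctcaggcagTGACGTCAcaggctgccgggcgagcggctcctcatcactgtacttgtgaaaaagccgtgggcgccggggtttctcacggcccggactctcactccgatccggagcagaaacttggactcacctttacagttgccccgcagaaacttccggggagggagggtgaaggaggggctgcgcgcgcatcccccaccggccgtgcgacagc

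Zfp868, chr8:69625126-69625425, minus strand: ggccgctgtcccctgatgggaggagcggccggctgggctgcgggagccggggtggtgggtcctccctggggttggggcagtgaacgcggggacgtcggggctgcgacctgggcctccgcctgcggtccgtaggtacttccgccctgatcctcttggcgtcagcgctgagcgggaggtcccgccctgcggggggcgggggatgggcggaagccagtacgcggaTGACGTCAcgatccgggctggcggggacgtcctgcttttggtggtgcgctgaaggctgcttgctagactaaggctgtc

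The windows of Zfp263 and Zfp110 held neither set of letters. In the Zfp473 window, 1 of 3 that RefSeq gives for that gene, the element began 155 bases before the start, and in the Zfp868 window, 1 of 2, it began 28 bases before it. The AP-1 letters occurred in 3.70% of member windows, against 5.20% of all 32851 windows. The 10 tested members with them included Zfp57 and had a median log2 fold change of 0.14. By edgeR's quasi-likelihood test none of the 10 was called, beside 15.5% of all genes. The cyclic AMP element occurred in 3.70% of member windows, against 1.79% of all windows. Of 8 tested members with it, 2 were called, beside 15.5% of all genes, and the median log2 fold change of the 8 was 0.02. Zfp868, on chromosome 8, had -0.05 and no call once that chromosome's shift was taken out, as described below. Median GC content was 55.3% in member windows and 52.7% in all windows.

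The 262 members differed 115-fold in level. Their mean TPM had a median of 15.6, with quartiles at 8.59 and 32.5, and 3 members passed 100 TPM. Zfp207, also called BuGZ, which loads the checkpoint protein Bub3 onto kinetochores, led with 597 and 622 TPM in knockout libraries, against 576 and 533 TPM in wild-type libraries. Next came Zfp106, an RNA-binding protein needed by motor neurons and muscle in mice, with 219 and 199 TPM in knockout and 270 and 203 TPM in wild-type libraries. The genotypes overlapped for Zfp106, whose wild-type libraries differed from each other more than the knockout ones did. Zfp428 had 126 and 151 TPM in knockout and 138 and 167 TPM in wild-type libraries.

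Below 100 TPM, the next levels lay so close that neighbours in the order did not differ beyond their spread. Zfp609, a partner of the cohesin loader Nipbl and of Integrator in mouse neural progenitors, averaged 96.4 TPM over the 4 libraries, Zfp414 and Zfp64 86.2 TPM each, Zfp219 83.3 TPM and Zfp740 80.1 TPM. Zfp414 had 104 and 87.4 TPM in knockout libraries, against 77.4 and 75.9 TPM in wild-type libraries, but on counts it did not pass (0.12 ± 0.15, edgeR adjusted p = 0.659), and its counts were fractional in all 4 libraries, as reads shared between genes had been split. As a group the members supplied 0.699% and 0.689% of all TPM in knockout libraries, and 0.702% and 0.681% in wild-type libraries, so their summed level overlapped between genotypes.

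For the genotype comparison, counts of all genes were fitted together and 261 members were tested; Zfp972 had too few counts. In all, 17 members were called higher in the knockout and 12 lower at a Benjamini-Hochberg adjusted p under 0.05 over all 12598 genes (edgeR's quasi-likelihood test), and 232 did not pass. That is 11.1% of members (6.51% higher and 4.598% lower), against 15.5% of all genes tested (8.21% higher and 7.32% lower). The median log2 fold change of knockout over wild type, the quantity used throughout with ± for its standard error and n = 2 per genotype, was 0.00 over members and 0.00 over all genes. Members were thus called no more often than genes at large, and 131 had positive and 130 negative values. In such bulk RNA, fewer cells that express a gene and less of its RNA per cell cannot be told apart. Called members were picked by their difference in these same libraries. A lack of overlap between genotypes, where given below, therefore adds no support to a call. Members without a call, such as Zfp125 and Zfp433, did not overlap in CPM either. The share without overlap over all members and over all genes was not counted. The counts depended on single libraries and on the tool: 15 were higher and 5 lower without knockout replicate 2, 9 and 7 without knockout replicate 3, and 11 and 4 without wild-type replicate 3. DESeq2 called 12 higher and 3 lower, and limma on log2 TPM called 1 higher, Zfp263, and 0 lower (11 lower at an unadjusted p under 0.05).

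Large differences were few. An absolute log2 fold change of 1 or more was measured in 5 members (1.92%), against 5.99% of all genes, and 88.5% of members stayed under 0.5, against 80.1% of all genes. The shares of all genes include genes below the members' limit of 5 TPM. Of the 10695 genes tested at 5 TPM or more, 323 had a value of 1 or more. Their share under 0.5 was not counted. Member counts were lower (median of mean counts 118, against 178 over all genes) and their standard errors larger (median 0.19, against 0.16). Between the 2 libraries of a genotype the median absolute log2 difference in CPM (counts scaled to 1e6 per library, with TMM) of a member was 0.18 in knockout and 0.18 in wild type, against 0.15 in each over all genes.

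**Figure D1:**
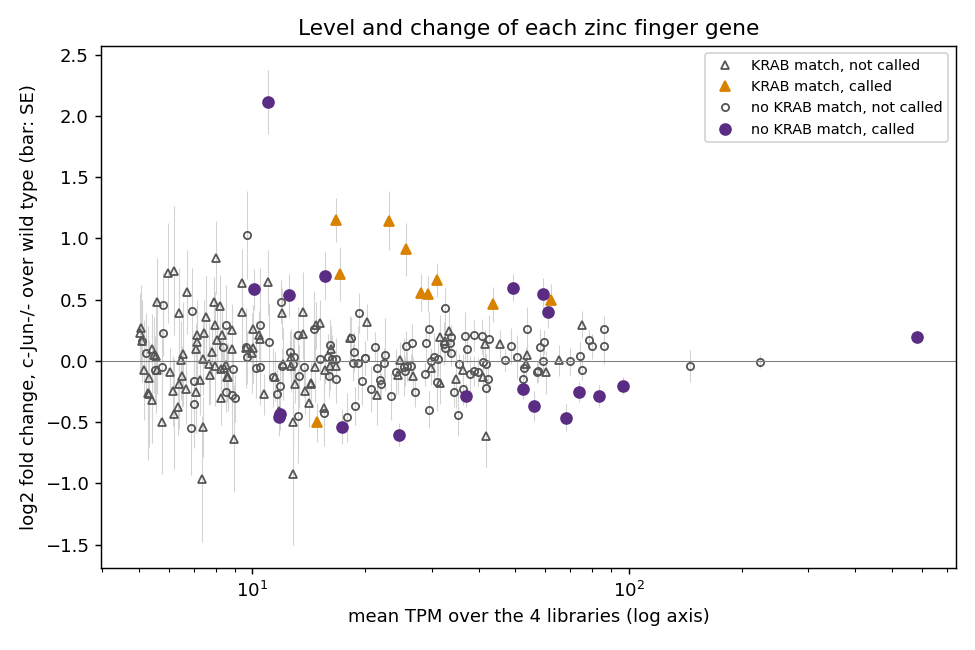
Log2 fold change of c-Jun-/- over wild type against mean TPM (log axis) for each tested zinc finger gene, with bars for the standard error, triangles for genes with a KRAB match and filled symbols for called genes. Called genes lie above 10 TPM, and the members between 5 and 10 TPM have the longest bars and no call.

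The share called differed with level. By edgeR none of the 79 tested members between 5 and 10 TPM was called; 5 of them had an unadjusted p under 0.05, DESeq2 called 0 of them and limma voom 1. Between 10 and 20 TPM 6 were higher and 4 lower of 76 (13.2%), between 20 and 50 TPM 7 were higher and 2 lower of 73 (12.3%), and at 50 TPM or more 4 were higher and 6 lower of 33 (30.3%). The median standard error was 0.30, 0.19, 0.14 and 0.11 in these 4 bins, so the smaller differences called among strongly expressed members were not detectable at the depth of the weakest ones. Of all genes at 5 TPM or more, 16.2% were called. Their shares by bin were not counted, so whether the rise with level is particular to the members was not tested.

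Outside chromosome 8, 6 members were called higher: Zfp263, Zfp110, Zfp473, Zfp984, Zfp111 and Zfp207. Another 12 were lower, so 7.5% of the 240 tested there were called, against 13.1% of all genes outside chromosome 8 (5.40% higher and 7.68% lower). Of the genes there that reach 5 TPM, 13.4% were called, 5.36% higher and 8.00% lower. The median was -0.02 over these members and -0.01 over all genes outside chromosome 8.

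Zfp263 (ENSMUSG00000022529, GRCm38 chr16:3744093-3750790, plus strand), a DNA-binding factor with 9 fingers and a SCAN domain, had 20.5 and 27.4 CPM in knockout libraries, against 4.55 and 6.34 CPM in wild-type libraries. It was the member with the largest difference, 4.33-fold higher in the knockout (2.11 ± 0.26, edgeR adjusted p = 3.11e-07), and the groups lay far apart. In TPM it had 14.5 and 21.4 in knockout libraries, against 3.35 and 4.88 in wild-type libraries. Both wild-type values lay below the limit of 5 TPM, so Zfp263 became a member through its knockout libraries. Its place as the largest difference depended in part on that rule. The call of Zfp263 was kept under all 15 alternatives. Its neighbour Zfp597, within 500 kb, had -0.23 and an adjusted p of 0.669 by edgeR.

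Zfp110 (ENSMUSG00000058638, chr7:12834761-12850577, plus strand), known as Nrif for binding the p75 neurotrophin receptor, has 5 fingers with KRAB and SCAN matches. Its CPM was 40.4 and 46.3 in knockout libraries, against 23.5 and 15.5 in wild-type libraries, 2.22-fold higher in the knockout (1.15 ± 0.18, edgeR adjusted p = 1.42e-05). The wild-type libraries differed from each other by more than the knockout ones did, yet both stayed below. Without wild-type replicate 3 the value was 0.88, and the call was kept. The other tested members of its cluster on chromosome 7, Zfp446, Zfp324, Zfp329 and Zfp606, had 0.11, 0.07, -0.07 and -0.13 and did not pass.

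Zfp473 had 29.5 and 37.0 CPM in knockout libraries, against 15.6 and 24.999 CPM in wild-type libraries. Its human counterpart ZNF473 (ZFP100) belongs to the machinery that forms histone mRNA ends. The groups did not overlap, though wild-type replicate 3 came near the knockout level (0.69 ± 0.19, edgeR adjusted p = 0.0119). The adjusted p was 0.0926 with knockout replicate 3 left out and 0.231 with wild-type replicate 2 left out (then 0.40), which ended the call; the lone library left is assumed to vary like the other genotype, here and below. Its exons overlap Vrk3 on the other strand, which had -0.04, and the strand of the reads is not stated.

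Zfp984, a KRAB gene at chr4:147753974-147809788, lies in a chromosome 4 cluster with genes that were set aside by name and with the member Zfp979, which did not pass (-0.08). It had 45.0 and 40.9 CPM in knockout libraries, against 29.9 and 28.7 CPM in wild-type libraries, with no overlap (0.56 ± 0.15, edgeR adjusted p = 0.00848). The 7 genes set aside from that cluster were all called higher, with a median of 1.72 and a range of 1.03 to 3.54, so Zfp984 had the smallest difference among these 8. Its counts were fractional in all 4 libraries and its exons overlap Gm20707 on the same strand (0.65), so reads may have been divided among near-identical copies. Leaving out knockout replicate 2 or wild-type replicate 3 ended the call (adjusted p = 0.0913 and 0.0531).

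The other 2 differences outside chromosome 8 were smaller or less stable. Zfp111 had 31.9 and 30.0 CPM in knockout libraries, against 20.96 and 21.8 CPM in wild-type libraries (0.53 ± 0.17, edgeR adjusted p = 0.0312). Although its groups did not overlap, it lost its call when any 1 library was left out (adjusted p 0.0521 to 0.153). Zfp207 had 625 and 669 CPM in knockout libraries, against 580 and 549 CPM in wild-type libraries (0.20 ± 0.06, edgeR adjusted p = 0.0123). That call ended when either replicate 3 was left out, knockout (adjusted p = 0.17) or wild-type (0.126).

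**Figure D2:**
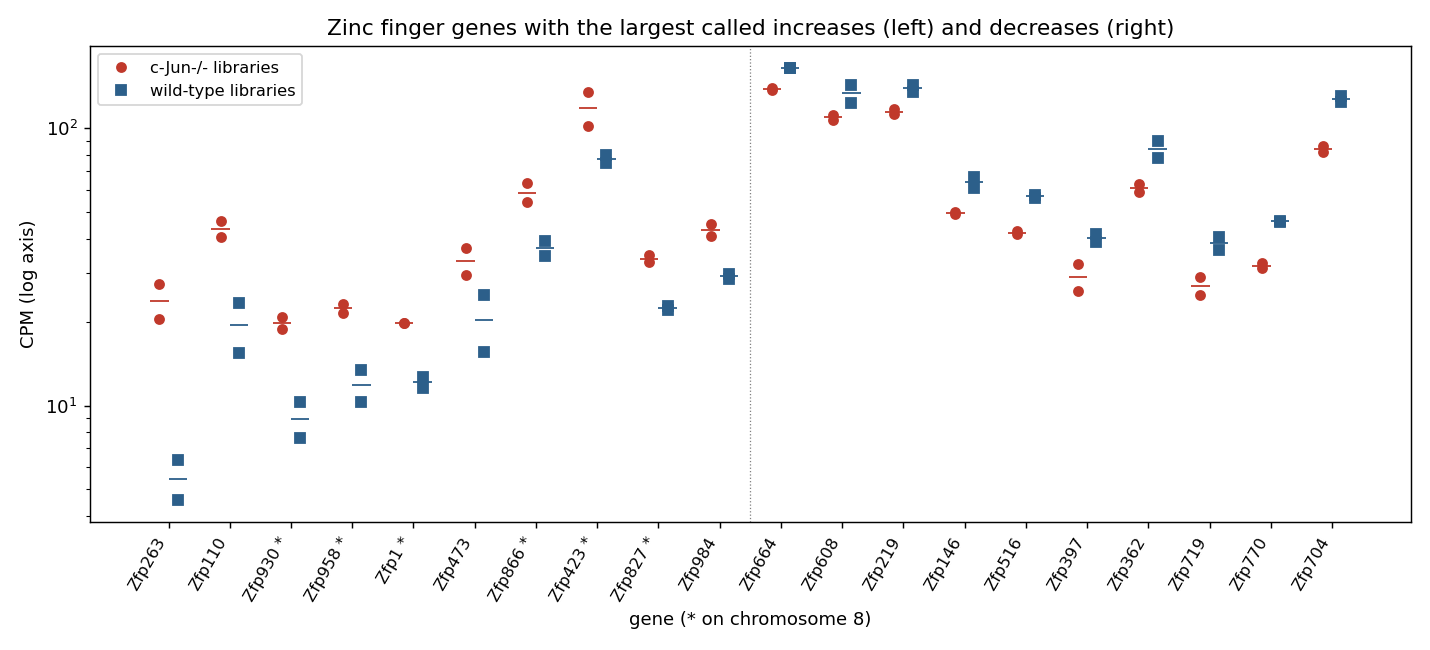
CPM (log axis) in each library for the 10 members with the largest called increases, left of the dotted line, and the 10 with the largest called decreases, right of it; circles are c-Jun-/- libraries, squares wild-type libraries, short lines the means, and an asterisk marks chromosome 8. Zfp263 shows the widest gap, and in none of the 20 do the genotypes overlap. The 20 were picked by their difference in these same libraries, so that lack of overlap adds no support.

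Of the decreases, Zfp704 (ENSMUSG00000040209, chr3:9427020-9610085, minus strand), first described as a gene induced by glucocorticoids, had 82.0 and 86.1 CPM in knockout libraries, against 124 and 131 CPM in wild-type libraries. Replicates lay close together and the genotypes well apart, 1.52-fold higher in wild type (-0.60 ± 0.09, edgeR adjusted p = 1.42e-05). It kept its call without any 1 library, and lost it in 2 of 15 alternatives, both limma fits on log2 TPM (adjusted p = 0.258 in each). A transcript on the other strand, C030034L19Rik, overlaps its exons and was listed with a mean count of 0.

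A further 3 decreases concerned genes with known roles in development. Zfp516, an activator of Ucp1 in brown fat, had 42.5 and 41.5 CPM in knockout libraries, against 56.2 and 57.5 CPM in wild-type libraries (-0.43 ± 0.13, edgeR adjusted p = 0.0178). Zfp219, a partner of Sox9 in cartilage, had 112 and 117 CPM in knockout libraries, against 136 and 144 CPM in wild-type libraries (-0.29 ± 0.09, edgeR adjusted p = 0.0214). Zfp608, which represses the Rag genes in mouse thymocytes, had 108 and 112 CPM in knockout libraries, against 144 and 124 CPM in wild-type libraries (-0.28 ± 0.09, edgeR adjusted p = 0.0322). None of these 3 overlapped between genotypes, but each call rested on single libraries. Zfp516 lost it without knockout replicate 2, knockout replicate 3 or wild-type replicate 3 (adjusted p = 0.0757, 0.0797 and 0.0912). Zfp219 lost it without knockout replicate 2 or wild-type replicate 3 (adjusted p = 0.16 and 0.174), and Zfp608 without knockout replicate 2, knockout replicate 3 or wild-type replicate 2 (adjusted p = 0.172, 0.0566 and 0.371; -0.18 without the last). Exons of Zfp219 (Arhgef40, -0.02, and Tmem253, mean 1.01 TPM) and Zfp608 (Gm26742, mean 0.07 TPM) overlap genes on the other strand.

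Zfp609, a close relative of Zfp608 in sequence, had 216 and 237 CPM in knockout libraries, against 265 and 256 CPM in wild-type libraries (-0.20 ± 0.07, edgeR adjusted p = 0.0491). The gap between the groups was narrower than the one between the knockout libraries. It lost its call without knockout replicate 2 (-0.13, adjusted p = 0.426) or without either wild-type library (0.186 and 0.101).

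The remaining decreases were in less studied members. Zfp770 had 31.2 and 32.6 CPM in knockout libraries, against 46.5 and 46.1 CPM in wild-type libraries (-0.54 ± 0.14, edgeR adjusted p = 0.00803). Zfp362 had 63.1 and 58.7 CPM in knockout libraries, against 77.9 and 90.3 CPM in wild-type libraries (-0.46 ± 0.11, edgeR adjusted p = 0.00362). Zfp719, a KRAB gene, had 29.2 and 25.01 CPM in knockout libraries, against 36.4 and 40.7 CPM in wild-type libraries (-0.50 ± 0.16, edgeR adjusted p = 0.0282). Libraries of a genotype agreed best for Zfp770, and no genotype ranges overlapped in any of the 3. Zfp770 lost its call without knockout replicate 2 (adjusted p = 0.0633), Zfp362 without wild-type replicate 3 (adjusted p = 0.103), and Zfp719 without either replicate 3 (adjusted p = 0.176 for knockout and 0.198 for wild type).

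Zfp397, a SCAN gene, had 32.4 and 25.9 CPM in knockout libraries, against 41.5 and 39.0 CPM in wild-type libraries (-0.45 ± 0.16, edgeR adjusted p = 0.0451). Zfp146 had 49.96 and 48.9 CPM in knockout libraries, against 66.7 and 61.2 CPM in wild-type libraries (-0.37 ± 0.12, edgeR adjusted p = 0.0358). Zfp664 had 138 and 140.1 CPM in knockout libraries, against 165 and 166 CPM in wild-type libraries (-0.25 ± 0.08, edgeR adjusted p = 0.0291). These 3 showed no overlap between genotypes, with the tightest replicates in Zfp664. Zfp652, with -0.23 ± 0.08 and an edgeR adjusted p of 0.0489, completes the 12, and its exons overlap Phospho1 on the same strand. Zfp146, Zfp664 and Zfp652 lost the call when any 1 library was left out (adjusted p 0.0541 to 0.197, 0.0827 to 0.155 and 0.0611 to 0.263), and Zfp397 lost it in 3 of 4 such fits (0.0888 to 0.319).

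On chromosome 8, 11 of 21 members were called higher and 0 lower (52.4%), against 58.2% of all genes there (57.2% higher and 1.02% lower). The median was 0.55 over these members and 0.51 over all genes of the chromosome, and 20 of 21 had positive values. When chromosome 8 genes were centred, by taking their median out of the knockout libraries, the members' median was 0.04 and 0 of the 11 kept their call by edgeR; over all genes that fit called 12.4%, 5.17% higher and 7.27% lower. The 11 increases could therefore not be told apart from the shift of their chromosome.

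**Figure D3:**
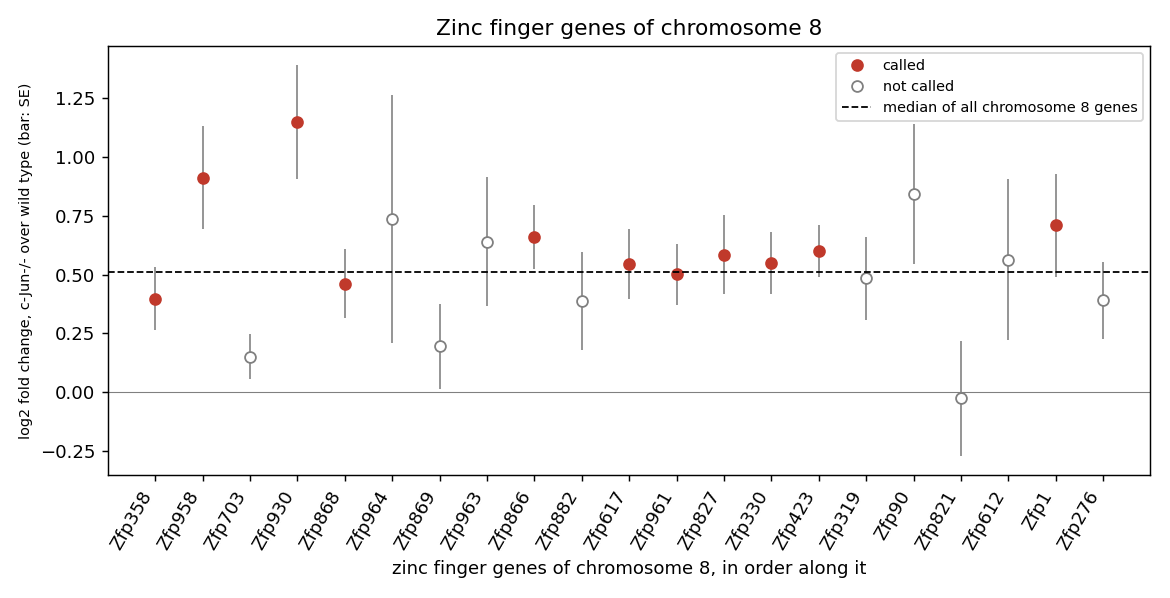
Log2 fold change of c-Jun-/- over wild type, with bars for the standard error, of the 21 zinc finger members of chromosome 8 in their order along it; filled points were called and the dashed line is the median of all genes of the chromosome (0.51). The points scatter about the dashed line, with Zfp930 at 1.15 the highest and Zfp821 at -0.03 the lowest.

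Zfp423, a protein with 27 finger motifs that works with BMP signalling and Ebf factors and marks precursors of fat cells, had 102 and 135 CPM in knockout libraries, against 75.2 and 80.0 CPM in wild-type libraries (0.60 ± 0.11, edgeR adjusted p = 0.000167). Zfp330, a nucleolar protein, had 58.5 and 57.2 CPM in knockout libraries, against 41.3 and 37.9 CPM in wild-type libraries (0.55 ± 0.13, edgeR adjusted p = 0.00285). Zfp827, whose human counterpart brings the NuRD complex to telomeres, had 33.0 and 34.8 CPM in knockout libraries, against 22.9 and 22.2 CPM in wild-type libraries (0.58 ± 0.17, edgeR adjusted p = 0.0139). In each of the 3 every knockout library was above every wild-type one. With the chromosome centred the values became 0.09, 0.04 and 0.07. Zfp827 also lost its call without either replicate 3 (adjusted p = 0.0628 for knockout and 0.0717 for wild type).

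The KRAB genes of the chromosome included its largest differences. Zfp930 had 18.9 and 20.9 CPM in knockout libraries, against 10.3 and 7.65 CPM in wild-type libraries (1.15 ± 0.24, edgeR adjusted p = 0.000797). Zfp958 had 21.6 and 23.3 CPM in knockout libraries, against 10.3 and 13.4 CPM in wild-type libraries (0.91 ± 0.22, edgeR adjusted p = 0.00285). Zfp866 had 54.1 and 63.3 CPM in knockout libraries, against 39.4 and 34.7 CPM in wild-type libraries (0.66 ± 0.14, edgeR adjusted p = 0.000668). All 3 were free of overlap between genotypes and kept their call without any 1 library. Centring the chromosome left 0.63 for Zfp930 (edgeR adjusted p = 0.0867), 0.40 for Zfp958 (0.263) and 0.15 for Zfp866 (0.569). Exons of Zfp866 overlap Atp13a1 on the other strand, which had 0.50, and Gm20422 on the same strand, which had a mean count of 0.

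Zfp1 had 19.8 and 19.8 CPM in knockout libraries, against 12.7 and 11.6 CPM in wild-type libraries (0.71 ± 0.22, edgeR adjusted p = 0.023), and lost its call without knockout replicate 2, knockout replicate 3 or wild-type replicate 3 (adjusted p = 0.0834, 0.0607 and 0.113). Zfp617, Zfp961, Zfp868 and Zfp358 made up the rest, with 0.54, 0.50, 0.46 and 0.40 (edgeR adjusted p = 0.00899, 0.00652, 0.0264 and 0.0385). Each lost its call without at least 1 library: Zfp617 without knockout replicate 3 or wild-type replicate 2 (adjusted p = 0.102 and 0.0568), Zfp961 without knockout replicate 2 (0.235), Zfp868 without knockout replicate 3 or wild-type replicate 3 (0.138 and 0.305), and Zfp358 without knockout replicate 3 or wild-type replicate 2 (0.478 and 0.313). Zfp961, Zfp868 and Zfp358 turned to -0.01, -0.05 and -0.11 with the chromosome centred. In TPM, Zfp617 had 28.4 and 36.6 in knockout libraries, against 30.0 and 22.0 in wild-type libraries. Zfp961 had 82.7 and 52.9 TPM in knockout libraries, against 57.1 and 56.3 TPM in wild-type libraries. For both genes these groups overlapped where CPM did not. Effective length, by which TPM is divided, differed between libraries, and exons of Zfp617 overlap Zfp882.

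Zfp703 was among the chromosome 8 members with the smallest values, at 107 and 100 CPM in knockout libraries, against 96.5 and 90.5 CPM in wild-type libraries (0.15 ± 0.10, edgeR adjusted p = 0.334). With the chromosome centred it was called lower (-0.36, edgeR adjusted p = 0.0105). It was chosen here after its values were seen, as were Zfp821, with -0.03, and the chromosome 8 groups that follow. On that chromosome 6 members between 69209038 and 69791178 had a median of 0.65, with 3 called: Zfp930, Zfp866 and Zfp868. The 3 members between 71908608 and 71993792 had 2 called, Zfp617 with 0.54 and Zfp961 with 0.50, beside Zfp882 with 0.39.

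**Figure D4:**
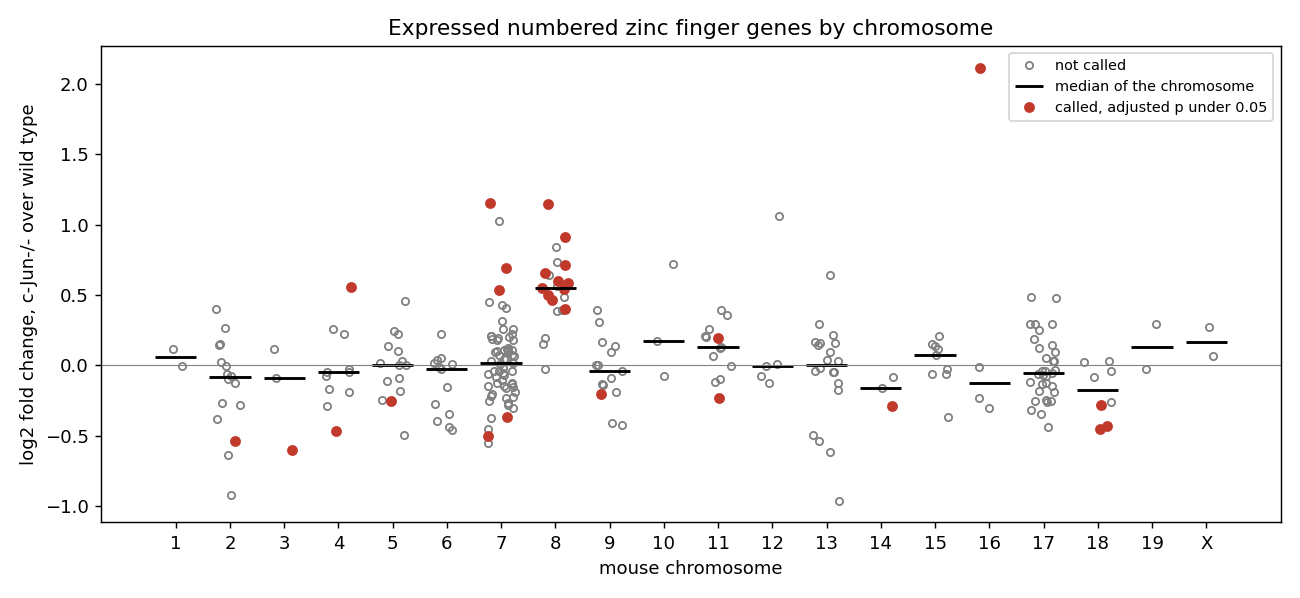
Log2 fold change of c-Jun-/- over wild type of each tested zinc finger gene by chromosome; filled points were called, open points were not, and horizontal lines are medians. Chromosome 8 stands above 0 with a median of 0.55, and Zfp263 on chromosome 16 is the highest single point.

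Clusters outside chromosome 8 seldom held called members, in a tally that leaves out the chromosome 4 genes set aside by name, which share the cluster of Zfp984 and were all higher. Runs of at least 3 numbered zinc finger genes within 500 kb of the next, counted over genes of any level, held 147 members in 32 clusters. Outside chromosome 8, 7 of 30 clusters had a called member and no cluster had more than 1 among the members counted here. That is 5.11% of 137 tested members in clusters there, against 10.7% of 103 outside clusters and 13.1% of all genes there. Members in clusters were weaker (median mean TPM 12.5, against 25.3 outside clusters) with larger standard errors (median 0.21, against 0.15). The part of level in their lower share was not tested. The 20 clusters there with 3 or more tested members had medians between -0.28 and 0.18. Chromosome 7, with 63 members the richest, had 3 higher and 2 lower (7.94%), against 13.1% of all genes outside chromosome 8. Chromosome 17 had 33 members and chromosome 13 had 20, with 0 called by edgeR in either; unadjusted p was under 0.05 for 3 members of each, DESeq2 called 0 and limma voom called 0 on chromosome 17 and 1 on chromosome 13.

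Protein features were read from the longest reading frame of the GENCODE transcripts. Zfp125, a transcribed pseudogene without a coding transcript, has none and is left out of these counts. The median member had 10 finger motifs (range 0 to 36) in 579 residues, and 17 had fewer than 2. A KRAB match was found in 121 members, of which 9 were called higher and 1 lower (8.26%), and 140 had none, of which 8 were higher and 11 lower (13.7% of 139 tested). Outside chromosome 8, 2.78% of 108 members with a match were called, against 11.5% of 131 without. The short pattern misses diverged KRAB domains, so members without a match may still carry one. Such misses would move calls between the sets, and their part in these shares was not tested. The sets also differed in what limits detection: median mean TPM was 10.0 with a match and 23.7 without, and median standard errors were 0.23 and 0.16, so the part of level in the lower share was not tested. Members with a match had a median of 12 fingers against 8, and 75.2% of them lay in clusters, against 40.0% of the others. Of 9 members with a SCAN match, 2 were called higher (Zfp263 and Zfp110) and 1 lower (Zfp397), while Zfp287, Zfp369, Zfp213, Zfp444, Zfp202 and Zfp445 did not pass. That is 33.3%, beside 13.1% of all genes outside chromosome 8, where all 9 lie. The set is small, the call of Zfp397 rested on single libraries, and whether the shares differ was not tested.

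By role, the listed imprint and retroelement repressors gave 1 call in 13 (7.69%, beside 15.5% of all genes), Zfp961 on chromosome 8. Their median was 0.05, and whether the shares differ was not tested. Zfp961 lost that call with the chromosome centred, and its TPM values overlapped between genotypes. Zfp57, which holds DNA methylation at imprinted regions, had 78.2 and 78.5 CPM in knockout libraries, against 65.9 and 61.9 CPM in wild-type libraries. Its groups did not overlap, but it did not pass (0.29 ± 0.11, edgeR adjusted p = 0.0684). Zfp445, which shares that task, had 0.14 ± 0.11, Zfp568, the placental silencer of Igf2, 0.05 ± 0.08, and Zfp809, the silencer of retroviruses, 0.40 ± 0.33, and none of them passed. Zfp708, a repressor of retroelements, was the only member listed at 0 in any library, with expected counts of 73 and 0 in knockout libraries, against 47.7 and 80 in wild-type libraries. Of the knockout libraries, replicate 2 lay within the wild-type range and replicate 3 far below it, and the difference was not called (-0.96 ± 0.51, edgeR adjusted p = 0.233). Its size rested on that library: it was -0.08 without knockout replicate 3 and -3.03 under limma voom, and without knockout replicate 2 the only knockout library left was at 0, so no fold is given.

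Of 15 listed developmental regulators, 1 was called higher, Zfp423 on chromosome 8, and 5 lower: Zfp704, Zfp516, Zfp219, Zfp608 and Zfp609. That is 40.0%, beside 15.5% of all genes, in a list chosen with earlier results of these data known and with a high median count of 518, against 118 over all members. DESeq2 called 2 of the 15, and of the 6 only Zfp704 and Zfp423 kept the call whichever library was left out, Zfp423 losing it with chromosome 8 centred. Zfp296, a factor of pluripotent cells with expected counts of 52 and 51 in knockout and 24 and 25 in wild-type libraries, lay on the threshold (1.02 ± 0.36, edgeR adjusted p = 0.05003). Zfp462, another of the list, had -0.03 ± 0.08.

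Of 12 listed members that act on RNA, translation or ribosomes, 0 were called by edgeR, DESeq2 or limma voom, beside 15.5% of all genes by edgeR. Of the 12, 2 had an unadjusted edgeR p under 0.05. Zfp36 (tristetraprolin), which drives mRNA decay, had 0.43 ± 0.17 (edgeR adjusted p = 0.0811), Zfp800 -0.46 ± 0.20 (0.134), and Zfp622, a ribosome maturation factor, 0.21 ± 0.13 (0.301). Of 6 spindle, ubiquitin and SUMO proteins, Zfp330 and Zfp207 were higher (33.3%), and of 16 general promoter and corepressor factors, Zfp827 was higher and Zfp219 lower (12.5%), beside 15.5% of all genes. Zfp330 and Zfp827 lie on chromosome 8 and lost their calls with it centred. Zfp143, an activator of many promoters, had 0.26 ± 0.14 and Zfp64 0.26 ± 0.11, and neither passed.

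For the corepressor on which KRAB proteins depend, calls were in both directions and mostly small. Of 35 tested genes listed for KAP1 and its partners, none on chromosome 8, 4 were called higher and 3 lower (20.0%, beside 13.1% of all genes outside chromosome 8), with a median of 0.03. The listed genes had more counts (median of mean counts 999, against 176) and smaller standard errors (median 0.08, against 0.16). The part of depth in the higher share was not tested. Trim28 itself had 0.16 ± 0.04 (edgeR adjusted p = 0.00981, and 0.0567 without wild-type replicate 2), while Setdb1 had 0.11 ± 0.08 (adjusted p = 0.357). The largest difference was in Fam208a (TASOR, of the HUSH silencing complex), at 1.44 ± 0.21 (edgeR adjusted p = 4.64e-06), though Pphln1 of the same complex had -0.36 ± 0.08 (adjusted p = 0.00251). Uhrf1, which guides maintenance of DNA methylation, had 0.27 ± 0.07 and Rbbp7 0.25 ± 0.05, while Chd3, a NuRD helicase, had -0.43 ± 0.10 and Dnmt3b, a DNA methyltransferase, -0.19 ± 0.05 (edgeR adjusted p = 0.00481, 0.000857, 0.00205 and 0.00786; Dnmt3b 0.0596 without knockout replicate 2).

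Other families read the same way are set beside the members only for scale. Of all genes tested at 5 TPM or more, 16.2% were called. At that level, Zbtb genes (zinc fingers with a BTB domain) had 0 higher and 1 lower of 32 (3.12%), with a median of -0.01. Zscan and Zkscan genes had 0 called of 16 by edgeR, DESeq2 or limma voom, 2 of them at an unadjusted edgeR p under 0.05, and a median of 0.06. Zc3h genes, whose fingers use 3 cysteines and bind RNA, had 2 higher and 1 lower of 14 (21.4%), with a median of 0.07. Whether these shares differ from that of the members or of all genes was not tested.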

How the data were processed

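Each library has 1 gene table that the authors made with RSEM, Bowtie2 and bcl2fastq on build mm10, per the submitters' processing notes, whose versions and annotation are not stated here. The deposited tables give expected counts, TPM, FPKM and an effective length for every gene, per the file headers, and FPKM was not used. Libraries were made with an Illumina TruSeq RNA kit, per the labels' protocols, and strand is not stated, so overlapping genes on either strand are uncertain. Fractional counts, which 51 members had, mark reads split between similar genes.

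Symbols, positions and transcripts came from GENCODE M21 (GRCm38, the assembly of mm10), which matched 28756 of 29267 identifiers. Expected counts were rounded, filtered by filterByExpr (minimum count 10, total 15; 12598 genes), scaled by TMM (factors 0.988 to 1.008) and tested with edgeR 4.0.16 (glmQLFit, glmQLFTest, R 4.3.3) without covariates, with Benjamini-Hochberg adjustment over all genes and a threshold of 0.05. The standard error is the log2 fold change over the root of F. With 0 counts, a level of up to 3 counts (0.473 to 0.643 CPM) remains possible, counting error alone considered. The steps were run on simulated counts, drawn gene by gene with the dispersions fitted here and without a chromosome 8 shift. That run checks the steps and adds no support to the calls. Alternatives used DESeq2 1.42.0 and limma 3.58.1, among other settings given in the closing section.

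Finger motifs were a Cys pair 2 to 4 residues apart, 12 residues, and a His pair 3 to 5 residues apart. KRAB and SCAN were matched by short core patterns, which miss diverged domains; no protein table was used. Members, role lists, features and motifs were chosen with earlier results of these data known. Named were the 10 largest called increases and decreases, the 8 highest levels, up to 3 members of smallest p in each role list, and those at the level threshold. Other members, Trim28 and Setdb1 were named to account for every call or for their known role, after their values were seen.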

Additional observations from a re-analysis of the deposited data

How the results depend on the processing

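The counts of members called higher (17) and lower (12) stayed within 1.5 times under RLE scaling, total counts without TMM, limma voom, no filter, a filter of 1 CPM in 2 libraries, and level limits of 10 or 2 TPM. With the replicate number as a block, 22 were higher and 15 lower, all 29 calls being kept; deviations of same-numbered libraries correlated at 0.021 over genes, so the numbers are not shown to pair samples. The block brought Zfp57 (adjusted p = 0.0426) and Zfp64 (0.0465) past the threshold. DESeq2 called 12 higher and 3 lower. Limma with a trend on log2(TPM + 1), and on log2(TPM + 0.1), called 1 higher and 0 lower, with 20 and 11 members at an unadjusted p under 0.05. With chromosome 8 centred 6 were higher and 10 lower, and without its genes 6 and 6. Leaving out 1 library gave 9 to 16 higher and 4 to 9 lower; 8 of the 29 calls were kept whichever was left out (Zfp263, Zfp110, Zfp930, Zfp958, Zfp866, Zfp423, Zfp330 and Zfp704), of which Zfp263, Zfp110 and Zfp704 also passed with chromosome 8 centred. Centring turned Zfp358 (-0.11), Zfp868 (-0.0504) and Zfp961 (-0.012). Zfp106, never called, took 0.0036 without knockout replicate 3, -0.0334 without wild-type replicate 2, 0.0193 without wild-type replicate 3 and 0.0097 without chromosome 8 genes. Zfp708 passed under voom (adjusted p = 0.0103), no filter (0.0146), the block (0.00175), without knockout replicate 2 (1.49e-12) and without wild-type replicate 2 (0.00552). Scalings moved the median of all genes by at most 0.02. The cause was not tested.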

Other observations

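Below the 5 TPM limit, 54 numbered zinc finger genes had enough counts to test, and 3 were higher in the knockout by edgeR. They were chosen after their values were seen. Zfp988 had 3.65 and 4.30 TPM in knockout libraries, against 0.40 and 0.41 TPM in wild-type libraries (3.29 ± 0.63, edgeR adjusted p = 0.000264), and kept its call without any 1 library. Zfp982 had 10.2 and 6.41 TPM in knockout libraries, against 1.05 and 1.30 TPM in wild-type libraries (2.87 ± 0.64, edgeR adjusted p = 0.00139), and lost its call without knockout replicate 2 (adjusted p = 0.0825). Both lie on chromosome 4, as do the genes set aside by name, and both have fractional counts. Zfp677 on chromosome 17 had 5.26 and 4.19 TPM in knockout libraries, against 1.74 and 1.74 TPM in wild-type libraries (1.48 ± 0.44, edgeR adjusted p = 0.0178). Zfp677 lost its call without knockout replicate 2, wild-type replicate 2 or wild-type replicate 3 (adjusted p = 0.198, 0.0682 and 0.0846).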
